A study of Mus musculus with 11 samples.

Results

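Of the 52282 genes counted in mouse inguinal fat, 36 genes of peroxisome assembly and peroxisomal lipid metabolism are described here. The genes were taken by name from a list: 13 peroxins, 2 acyl-CoA transporters, 8 genes of the core of peroxisomal beta-oxidation, 7 auxiliary or CoA-ester enzymes, 2 genes of alpha-oxidation, 3 of ether lipid synthesis, and catalase. All 36 genes passed the expression filter that kept 26960 genes for testing. Peroxisomes are small organelles bounded by a single membrane. Peroxins insert their membrane proteins and import their enzymes fully folded from the cytosol. Peroxisomal beta-oxidation shortens very long and branched fatty acids that mitochondria handle poorly, and its oxidases release hydrogen peroxide, which catalase breaks down. In adipocytes several genes of this set are known targets of PPARG, the nuclear receptor that rosiglitazone activates.

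Libraries were made from total RNA of inguinal white adipose tissue, a subcutaneous fat pad. The series addresses how PPARG and the kinase complex mTORC1, of which Raptor (gene Rptor) is a subunit, together regulate this tissue. All mice were C57BL6/J, aged 16 weeks, and carried floxed Raptor. They ate a high-fat diet for 8 weeks from 8 weeks of age. The 5 KO libraries came from mice that also carried Cre recombinase driven by the adiponectin promoter, which acts in adipocytes, and the 6 WT libraries from floxed mice without Cre. "On diet" means the diet alone (3 WT and 2 KO libraries), and "with rosiglitazone" means the diet with rosiglitazone at 30 mg per kg per day (3 WT and 3 KO libraries). The labels do not state that each library is a separate animal, so p-values measure the spread between these libraries. In whole tissue, fewer cells of a type and less RNA per cell cannot be told apart.

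The 11 libraries held 13035346 to 40925952 estimated reads. The treatment written in the title is the other one than in the treatment field for each of the 6 WT libraries. The field was followed, and comparisons of WT groups rest on that choice. Rptor itself was at 92.01, 80.1 and 73.9 CPM in WT on diet, 119, 126 and 110.5 in WT with rosiglitazone, 56.5 and 69.6 in KO on diet and 88.3, 82.4 and 91.7 in KO with rosiglitazone. KO and WT values did not overlap on either treatment, and the log2 fold change averaged over treatments was -0.41 ± 0.11, adjusted p = 0.0403 by edgeR, in tissue where other cells keep the gene. The 22 mature adipocyte markers, none at 0 in any library, summed to 17175 to 52996 CPM in WT on diet, 47201 to 53677 in WT with rosiglitazone, 4051 to 12123 in KO on diet and 7249 to 8520 in KO with rosiglitazone. Skeletal muscle markers took more than 0.5% of the reads of 3 libraries, namely 1.83% (KO, rosiglitazone, replicate 2), 0.766% (WT, diet, replicate 2) and 0.699% (WT, rosiglitazone, replicate 3). These are called the 3 libraries with muscle reads below, although every library held some. The next share was 0.326% (WT, rosiglitazone, replicate 2), and that library was kept. Omitting the 3 leaves 2 libraries in each group, so muscle reads and fewer libraries cannot be told apart in such fits. Of the hepatocyte markers, a cell type rich in peroxisomes, Apoa1 did not exceed 0.190 CPM and Alb 9.54 CPM in any library, while Serpina1a reached 19.7 CPM and Cyp2e1 lay between 35.2 and 410.0 CPM.

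Windows of the 250 bases upstream of the RefSeq start (GRCm38.p6) were found for 30 of the 36 genes, not for Pex19, Crat, Abcd2, Hsd17b4, Pex2 and Amacr. Motifs were searched on both strands: AGGTCA, the half-site of the direct repeat that PPARG and RXR bind, and CCAAT, a common element of promoters. AGGTCA was in the windows of 3 of the 30 genes (Cat, Pex11g and Scp2) and in 14.02% of 32851 windows of the same length. CCAAT was in those of 13 of the 30 genes and in 33.85% of all windows. The windows of 5 genes are shown because these genes carry the contrasts below: Cat, Scp2, Phyh and Pex6 were lower in KO than in WT with rosiglitazone and Far1 was higher. They lie at chr2:103485154-103485403 (minus strand), chr4:108118548-108118797 (minus), chr2:4918746-4918995 (plus), chr17:46711226-46711475 (plus) and chr7:113513584-113513833 (plus). At most 13 bases of a window, in Pex6, lie in an annotated exon. Sequences run 5′ to 3′ toward the gene, and capitals mark AGGTCA or CCAAT on either strand.
Cat: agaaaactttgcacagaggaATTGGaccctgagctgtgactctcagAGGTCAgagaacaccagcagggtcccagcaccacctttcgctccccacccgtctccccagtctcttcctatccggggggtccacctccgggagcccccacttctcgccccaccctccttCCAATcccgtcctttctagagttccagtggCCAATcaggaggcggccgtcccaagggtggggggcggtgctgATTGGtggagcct
Scp2: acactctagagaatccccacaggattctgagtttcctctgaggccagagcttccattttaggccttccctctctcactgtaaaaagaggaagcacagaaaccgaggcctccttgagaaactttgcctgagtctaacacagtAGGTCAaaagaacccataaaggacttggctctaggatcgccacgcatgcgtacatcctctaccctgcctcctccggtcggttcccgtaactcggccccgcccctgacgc
Phyh: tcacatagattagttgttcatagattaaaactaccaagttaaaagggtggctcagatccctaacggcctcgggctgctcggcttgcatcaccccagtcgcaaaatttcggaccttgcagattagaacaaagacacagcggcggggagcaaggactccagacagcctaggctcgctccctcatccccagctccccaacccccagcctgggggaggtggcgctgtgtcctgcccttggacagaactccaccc
Pex6: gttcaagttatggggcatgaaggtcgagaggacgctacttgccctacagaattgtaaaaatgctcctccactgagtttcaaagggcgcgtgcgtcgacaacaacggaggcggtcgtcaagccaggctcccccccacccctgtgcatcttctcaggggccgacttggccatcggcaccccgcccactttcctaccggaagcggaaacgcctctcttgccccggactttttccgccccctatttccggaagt
Far1: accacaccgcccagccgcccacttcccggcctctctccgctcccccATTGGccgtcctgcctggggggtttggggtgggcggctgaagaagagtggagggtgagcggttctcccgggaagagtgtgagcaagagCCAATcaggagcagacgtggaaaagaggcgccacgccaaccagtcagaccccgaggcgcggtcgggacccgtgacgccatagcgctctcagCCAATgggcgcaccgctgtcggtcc
The Cat window holds 1 AGGTCA and 4 CCAAT matches, Scp2 holds 1 AGGTCA, Far1 holds 3 CCAAT, and Phyh and Pex6 hold neither motif. The motifs do not overlap each other. A match is a description of letters, and no binding was measured.

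TPM, a read measure that divides by transcript length, puts the genes of one library on one scale. In WT on diet the highest mean levels were those of Scp2 at 326 TPM, Ech1 at 184, Gnpat at 166 and Cat at 165. Acox2 was the lowest of the 36 at 1.62 TPM, most of it on a transcript annotated without a coding sequence. In WT with rosiglitazone the same 4 genes led, at 681 TPM for Scp2, 564 for Ech1, 433 for Cat and 328 for Gnpat. With rosiglitazone, KO was led by Ech1 at 102 TPM and Scp2 at 95.7. Abcd2 had rank 5 in WT on diet and 13 in KO with rosiglitazone, and Acaa1b had rank 19 in WT on diet, 9 in WT with rosiglitazone and 31 in KO on diet. Gnpat and Cat, neighbours in this order in WT on diet, differed by less than the spread of their libraries. All values below are CPM, reads per library scaled to a common size, which compare libraries within a gene, and those of a group are listed in replicate order. Differences are log2 fold changes ± standard error unless given as a fold.

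The first comparison asked how rosiglitazone acts in WT. Rosiglitazone raised 3 of the 36 genes in WT, where edgeR called 1.55% of all tested genes higher: Pex6 (an ATPase of receptor recycling) 2.64-fold, Ech1 (a dienoyl-CoA isomerase) 3.61-fold and Hacl1 (the lyase of alpha-oxidation) 2.59-fold. Far1, which makes the fatty alcohol for ether lipids, fell 1.80-fold, the 1 gene lower, against 0.593% of all tested genes. In 35 of the 36 genes the estimate was above 0, with a median log2 fold change of 1.04 against -0.05 over all tested genes. At an unadjusted p under 0.05, 25 genes were higher and 1 lower, against 9.93% and 7.5% of all tested genes. The WT libraries with rosiglitazone lay above every WT library on diet in 26 genes and below in 1, against 13.4% and 10.4% of all genes. DESeq2 called 17 higher and 1 lower, against 4.65% and 2.7% of all genes. Limma-voom with quality weights called 30 higher and 1 lower, against 16.9% and 10.3%. WT on diet replicate 1 lay closest to the rosiglitazone libraries, and its adipocyte markers summed to 52996 CPM against 20871 and 17175 in the other two WT libraries on diet. Without it edgeR called 23 genes higher and 1 lower. Without either KO library on diet it called 10 higher and 1 lower, and without any 1 of the remaining 8 libraries only Pex6. Over the 11 fits that each left out 1 library, edgeR called 18 to 2779 of all genes, in place of 578. Without the 3 libraries with muscle reads edgeR called none of the set and 0 of all genes, and the median was 0.92. With the WT treatments taken from the titles the same fit gives 3 lower and 1 higher. Brown and beige adipocyte markers differed as well: their sum was 335 to 644 CPM in WT with rosiglitazone and 44.3 to 137 in WT on diet, 2 of 11 were higher by edgeR, and Ucp1 was at 0 in 2 of the 3 WT libraries on diet. Of the 16 macrophage markers 4 were lower. With the adipocyte sum as a covariate 13 genes were higher and 1 lower, with a median of 0.43. That fit called 1798 of all genes, in place of 578. Adipocyte content and marker RNA per cell cannot be told apart, so the covariate may take up part of the drug response. B cell markers summed to 408 to 1039.6 CPM in WT with rosiglitazone and 1069.6 to 2326 in WT on diet, with 0 of 12 called. With that sum as a covariate only Pex6 of the set and 786 of all genes were called. The median of the set was then 0.37. The part of brown or beige adipocytes and macrophages in the result was not tested.

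**Figure D1:**
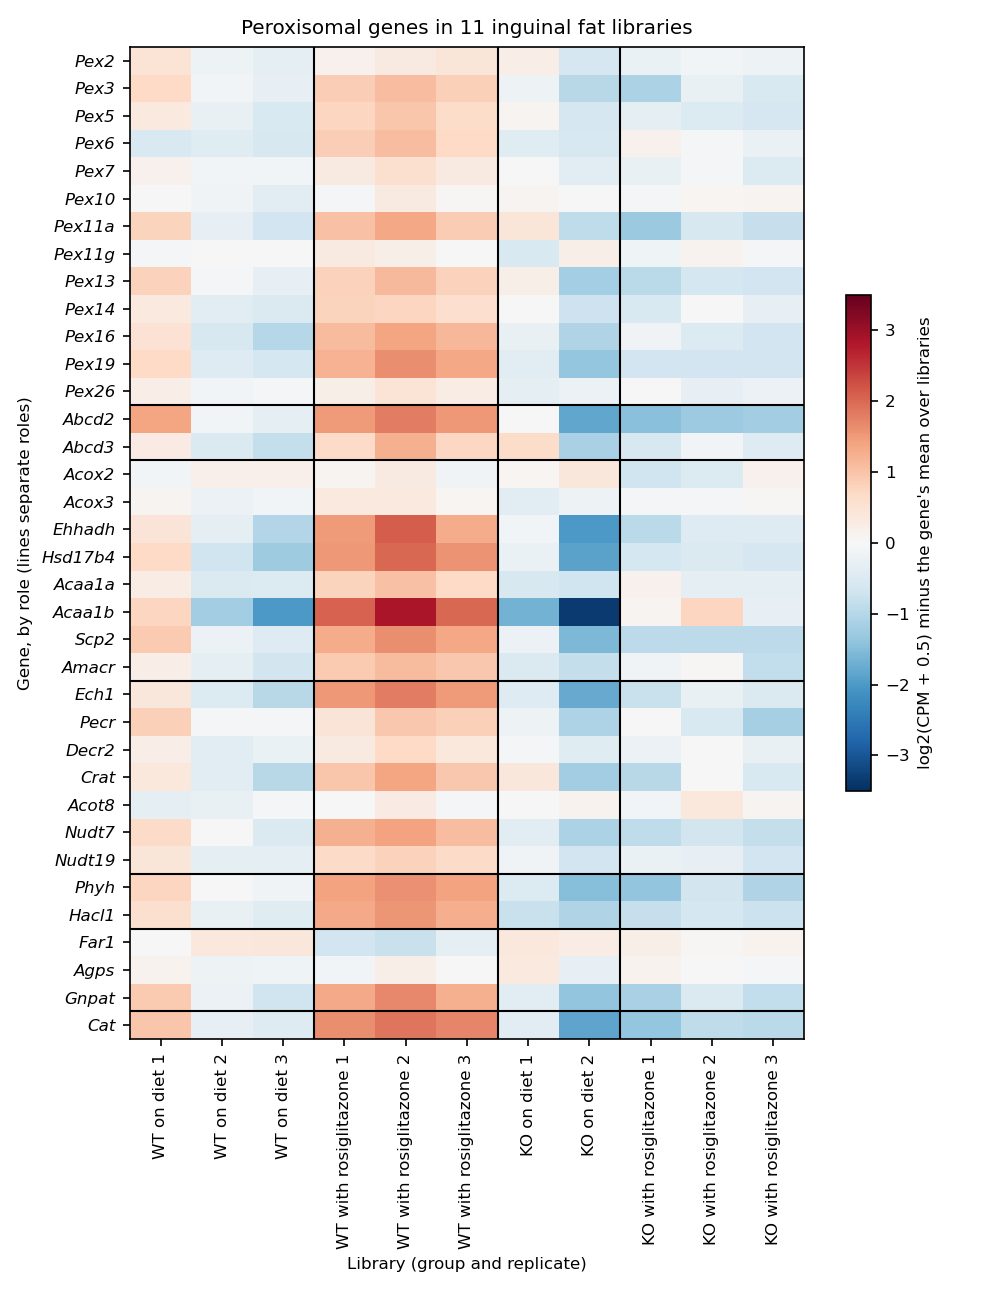
Heat map of the 36 genes (rows, ordered by role) in the 11 libraries (columns, by group), coloured by log2(CPM + 0.5) minus the gene's mean over libraries. The 3 WT libraries with rosiglitazone are high for most genes, WT on diet replicate 1 is the next highest column, and Far1 runs the other way.

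The second comparison asked how KO differs from WT when both received rosiglitazone, and here most of the set differed. In KO 23 of the 36 genes were lower, against 9.5% of all tested genes, and 1 (Far1) was higher, against 5.47%. The largest falls were those of Abcd2 (7.56-fold), Cat (6.94-fold), Phyh (5.67-fold) and Scp2 (5.12-fold). By role, 9 of 13 peroxins fell, 1 of 2 transporters, 5 of 8 core and 4 of 7 auxiliary genes, both alpha-oxidation genes, Gnpat of the ether lipid genes, and Cat. The median log2 fold change was -1.38 against 0.05 over all tested genes. KO libraries with rosiglitazone lay below those of WT in 30 genes and above in 1, against 24.7% and 23.5% of all genes. DESeq2 called 28 lower and 1 higher (13.2% and 8.94% of all genes), and limma-voom 29 lower and 1 higher (19.2% and 14.9%). Leaving out 1 library gave 10 to 29 called genes of the set, and 1498 to 5919 of all genes in place of 4037. It gave 10 without KO with rosiglitazone replicate 3, 11 without WT with rosiglitazone replicate 2 and 13 without KO with rosiglitazone replicate 1. Hacl1, Phyh, Nudt7, Pex6, Cat, Pex19, Scp2, Abcd2 and Gnpat were lower in all 11 such fits. Without the 3 libraries with muscle reads only Hacl1 was called (log2 fold change -2.18), of 208 genes in place of 4037, while the median was -1.47.

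Markers of several cell types differed in the same comparison. Of the 22 mature adipocyte markers 20 were lower in KO with rosiglitazone, with a median log2 fold change of -2.72, and their sums did not overlap (7249 to 8520 against 47201 to 53677 CPM). Macrophage markers summed to 3024 to 3760 CPM in KO and 788 to 966 in WT, with 12 of 16 higher, and 4 of 10 endothelial markers were lower. The 9 hepatocyte markers found summed to 37.7 to 50.4 CPM in KO and 128 to 321 in WT, mostly Cyp2e1. Of the 3 that could be tested 2 were lower. Apoa1, Apoa2, Ttr, Fgb, Fga and Ahsg did not exceed 0.284 CPM in any library, so the sum says little about hepatocytes. Per 100 CPM of adipocyte markers, the 36 genes summed to 24.7 to 26.01 CPM in KO with rosiglitazone and 14.3 to 16.4 in WT with rosiglitazone. On diet this ratio was 23.1 to 33.1 in KO and 9.43 to 12.3 in WT. KO on diet replicate 2 had the lowest adipocyte sum of all libraries (4051 CPM) and the highest ratio (33.1). Which cells the reads of the 36 genes came from is not known, so the ratio is not a level per adipocyte. With the adipocyte sum as a covariate, edgeR called no gene lower in KO with rosiglitazone and 1 higher (Pex2, 0.90), with a median of 0.04. That fit called 1974 of all genes, in place of 4037. That covariate itself does not overlap between the genotypes under rosiglitazone, so genotype and adipocyte content cannot be told apart there. B cell markers summed to 1729.8 to 1980.1 CPM in KO and 408 to 1039.6 in WT, and T and NK cell markers to 295 to 332 and 16.1 to 125, neither of which overlapped. By edgeR 1 of 12 B cell markers was higher and 0 of 13 T and NK cell markers were called. With the B cell sum as a covariate 8 genes were lower, with a median of -0.69, and 1469 of all genes were called. Genotype and B cell content cannot be told apart there either.

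**Figure D2:**
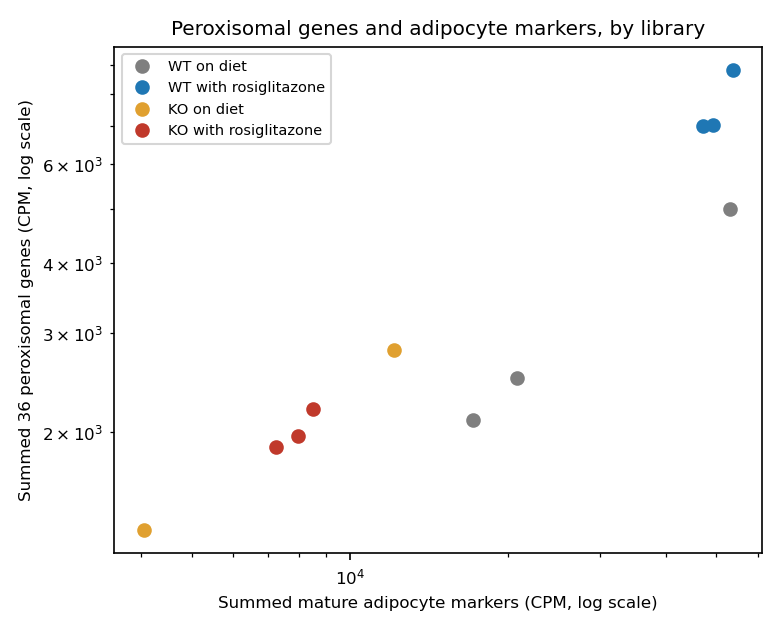
Summed CPM of the 36 peroxisomal genes (vertical, log scale) against summed CPM of the 22 mature adipocyte markers (horizontal, log scale), 1 point per library, coloured by group. Both sums are high in WT with rosiglitazone and WT on diet replicate 1, and the 5 KO libraries lie at or below 12123 CPM of adipocyte markers.

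The first group of peroxins builds the membrane and docks cargo. Pex19, the cytosolic chaperone of peroxisomal membrane proteins, was at 193, 88.01 and 77.8 CPM in WT on diet, 278, 368 and 306 in WT with rosiglitazone, 90.3 and 46.9 in KO on diet and 74.6, 74.5 and 74.9 in KO with rosiglitazone. The WT libraries with rosiglitazone were the highest, and KO with rosiglitazone lay below every WT library. Pex19 fell in KO with rosiglitazone (-2.09 ± 0.36, adjusted p = 0.00652, edgeR) and averaged over treatments (-1.45 ± 0.27, adjusted p = 0.00949, edgeR). In WT it did not pass for rosiglitazone (1.41 ± 0.36, adjusted p = 0.0752, edgeR). Pex3, the membrane anchor of Pex19, was at 35.6, 20.04 and 17.5 CPM in WT on diet, 39.5, 45.98 and 39.1 in WT with rosiglitazone, 19.1 and 10.7 in KO on diet and 9.79, 17.8 and 14.8 in KO with rosiglitazone. Pex16, which takes part in the insertion of Pex3, was at 54.96, 26.3 and 19.3 CPM in WT on diet, 83.8, 102 and 87.01 in WT with rosiglitazone, 32.01 and 18.4 in KO on diet and 35.7, 27.4 and 24.1 in KO with rosiglitazone. In both, KO with rosiglitazone and WT with rosiglitazone did not overlap, with log2 fold changes of -1.55 and -1.65. Pex13, a channel protein of the docking site, was at 132, 73.4 and 61.9 CPM in WT on diet, 132, 166 and 134 in WT with rosiglitazone, 87.3 and 33.3 in KO on diet and 39.6, 49.8 and 47.5 in KO with rosiglitazone. Its partner Pex14 was at 35.4, 20.8 and 19.1 CPM in WT on diet, 47.4, 47.1 and 41.5 in WT with rosiglitazone, 27.4 and 16.6 in KO on diet and 18.9, 27.3 and 22.4 in KO with rosiglitazone. Both fell in KO with rosiglitazone, by log2 fold changes of -1.66 and -0.99, and Pex13 overlapped between the WT groups through WT on diet replicate 1. Reads of Pex3, Pex13 and Pex16 cannot be told apart from those of genes overlapping on the other strand (Adat2, Pus10 and Large2), because the strand of the libraries is not stated.

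Among the import receptors, Pex5, which reads the carboxy-terminal targeting signal, was at 99.99, 65.7 and 54.03 CPM in WT on diet, 133, 155 and 122 in WT with rosiglitazone, 83.9 and 52.4 in KO on diet and 62.7, 56.1 and 51.8 in KO with rosiglitazone. Pex7, which reads the amino-terminal signal, was at 27.1, 22.6 and 22.5 CPM in WT on diet, 30.4, 35.96 and 30.6 in WT with rosiglitazone, 24.2 and 18.9 in KO on diet and 20.3, 23.3 and 17.3 in KO with rosiglitazone. Both fell in KO with rosiglitazone (Pex5 -1.27 ± 0.25, adjusted p = 0.0111, and Pex7 -0.67 ± 0.17, adjusted p = 0.0269, edgeR), and neither passed for rosiglitazone in WT. Pex6, an ATPase that helps pull Pex5 back out of the membrane, was at 44.5, 47.4 and 43.1 CPM in WT on diet, 116, 135 and 105 in WT with rosiglitazone, 47.8 and 43.6 in KO on diet and 71.7, 60.8 and 54.02 in KO with rosiglitazone. It was nearly level across the 5 libraries on diet, highest in WT with rosiglitazone and intermediate in KO with rosiglitazone, with no overlap between these 3 sets. Pex6 rose with rosiglitazone in WT (1.40 ± 0.16, adjusted p = 0.00848, edgeR) and averaged over genotypes (0.92 ± 0.12, adjusted p = 0.0204, edgeR), where it was the 1 gene higher and none was lower, against 0.423% and 0.148% of all tested genes. The averaged call was lost without replicate 2 of KO with rosiglitazone, replicate 2 or 3 of WT on diet, or replicate 1 or 2 of WT with rosiglitazone, and 11 genes were called without WT on diet replicate 1. Over all genes, leaving out 1 library gave 10 to 1199 calls for that contrast, in place of 154. In KO alone the response of Pex6 was 0.44 ± 0.18, adjusted p = 0.529 by edgeR. Pex6 was lower in KO than in WT with rosiglitazone (-0.93 ± 0.16, adjusted p = 0.00546, edgeR). Pex26, its membrane anchor, was at 18.7, 22.5 and 19.5 CPM in WT and 16.3, 13.03 and 13.9 in KO with rosiglitazone, which did not overlap and did not pass (-0.49 ± 0.16, adjusted p = 0.0667, edgeR).

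Pex11a, which elongates the membrane before peroxisomes divide, was at 38.5, 18.02 and 13.7 CPM in WT on diet, 45.4, 56.99 and 41.6 in WT with rosiglitazone, 29.9 and 11.7 in KO on diet and 8.73, 14.9 and 12.3 in KO with rosiglitazone. KO with rosiglitazone was below WT with rosiglitazone with no overlap (-2.003 ± 0.44, adjusted p = 0.0164, edgeR), while the groups on diet overlapped. Pex11g, its relative, was not called by edgeR in any comparison: means were 12.2 to 14.1 CPM in all but KO on diet, where the 2 libraries were at 8.37 and 14.5. Pex2 and Pex10, ubiquitin ligases that mark Pex5 for recycling, were called by edgeR in no comparison. Limma-voom called Pex2 higher for rosiglitazone in WT (0.51, adjusted p = 0.0224) and lower in KO with rosiglitazone (-0.47, adjusted p = 0.0255). Pex10 was at 13.4, 17.1 and 13.95 CPM in WT with rosiglitazone and 13.3, 14.5 and 14.6 in KO with rosiglitazone, overlapping values.

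Abcd2 and Abcd3 are half-transporters that carry acyl-CoA into peroxisomes, Abcd2 for very long chains. Abcd2 was at 995, 354 and 306 CPM in WT on diet, 1079, 1316 and 1089 in WT with rosiglitazone, 388 and 108 in KO on diet and 137, 159 and 165 in KO with rosiglitazone. WT on diet replicate 1 was close to the rosiglitazone libraries, and KO with rosiglitazone was below all WT libraries. Abcd2 fell in KO with rosiglitazone (-2.92 ± 0.55, adjusted p = 0.00886, edgeR) and averaged over treatments (-2.04 ± 0.41, adjusted p = 0.0124, edgeR). Abcd3 was at 126, 72.4 and 57.3 CPM in WT on diet, 165, 242 and 170.2 in WT with rosiglitazone, 159.8 and 46.6 in KO on diet and 69.3, 95.7 and 74.4 in KO with rosiglitazone. KO on diet replicate 1 lay just below the lowest WT library with rosiglitazone, and no comparison of Abcd3 passed by edgeR (smallest adjusted p = 0.0758 by edgeR, with a log2 fold change of -1.27, KO against WT with rosiglitazone). DESeq2 called that difference (-1.27, adjusted p = 0.0258).

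**Figure D3:**
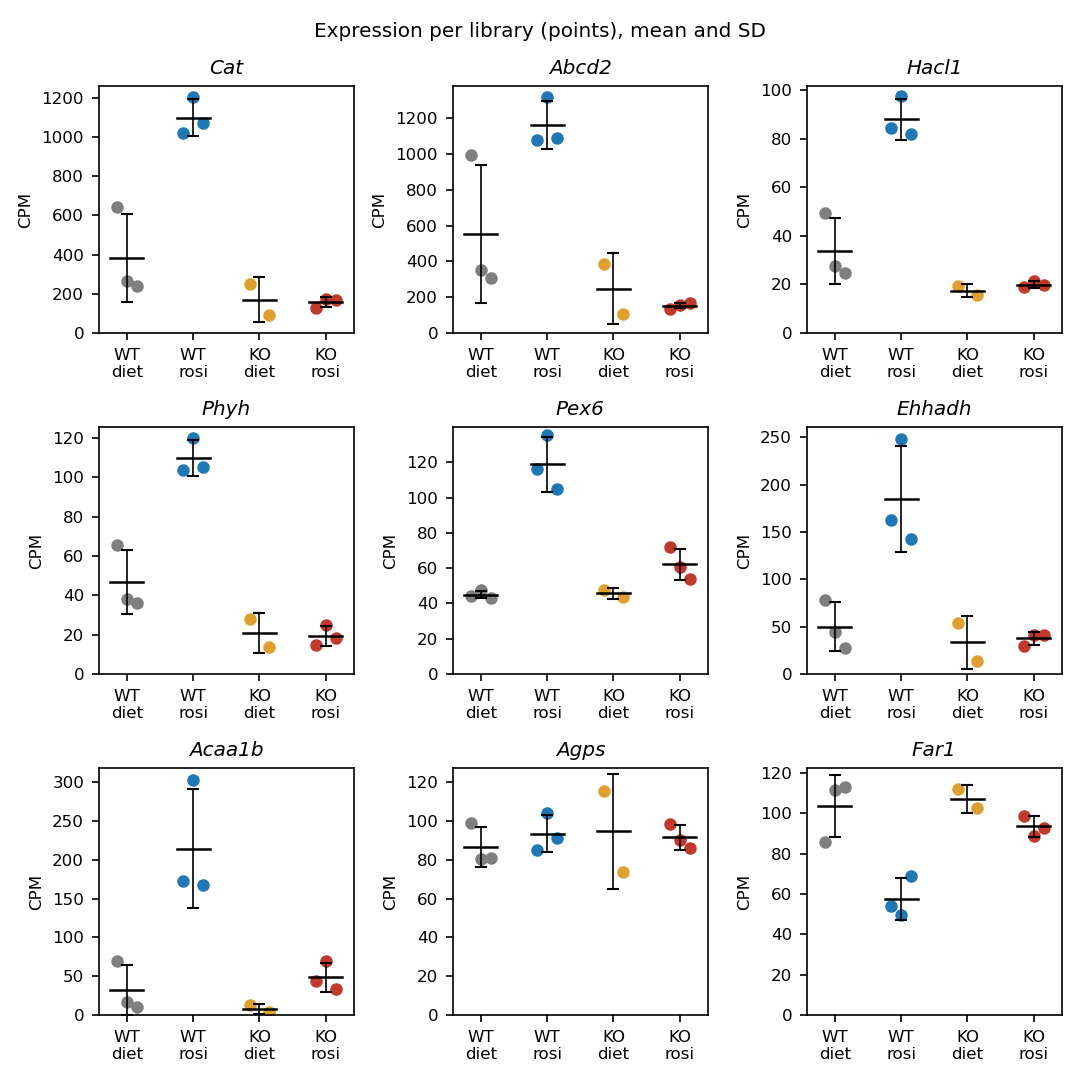
CPM (vertical, linear from 0) of 9 genes in the 4 groups; points are libraries, bars the group mean with SD. WT with rosiglitazone stands above both KO groups for Cat, Abcd2, Hacl1, Phyh, Pex6, Ehhadh and Acaa1b, the groups overlap for Agps, and Far1 is lowest in WT with rosiglitazone.

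In the core of beta-oxidation, the bifunctional enzymes hydrate and dehydrogenate the chain. Ehhadh was at 77.99, 44.8 and 27.8 CPM in WT on diet, 163, 249 and 143 in WT with rosiglitazone, 53.6 and 13.8 in KO on diet and 29.9, 41.7 and 41.7 in KO with rosiglitazone. Hsd17b4, the bifunctional enzyme for branched and very long chains, was at 331, 127 and 86.9 CPM in WT on diet, 585, 831 and 610.0 in WT with rosiglitazone, 173 and 55.5 in KO on diet and 133, 144 and 137 in KO with rosiglitazone. In both, WT with rosiglitazone lay above every other library. Rosiglitazone in WT gave 1.88 ± 0.50, adjusted p = 0.0914 for Ehhadh and 1.89 ± 0.52, adjusted p = 0.0979 for Hsd17b4 by edgeR, estimates of 3.68-fold and 3.72-fold that did not pass. KO with rosiglitazone was 4.90-fold lower for Ehhadh (adjusted p = 0.0175, edgeR) and 4.89-fold lower for Hsd17b4 (adjusted p = 0.0194, edgeR). Scp2, whose long form is a thiolase and whose short form carries sterols, was at 476, 217 and 184 CPM in WT on diet, 614, 774 and 646 in WT with rosiglitazone, 217 and 83.7 in KO on diet and 132, 133 and 132 in KO with rosiglitazone. The 3 KO libraries with rosiglitazone were nearly equal and below every WT library (-2.36 ± 0.42, adjusted p = 0.00731, edgeR). The coding transcript Scp2-201 was at 87.2 to 120.3 TPM in WT with rosiglitazone and 7.80 to 18.6 in KO with rosiglitazone, and the shorter Scp2-202 at 163 to 208 and 20.2 to 43.5. More of the gene's TPM in WT fell on Scp2-208, annotated without a coding sequence, at 249.7 to 366 TPM with rosiglitazone, against 20.1 to 39.4 in KO. Amacr, the racemase that makes branched chains fit for oxidation, was low, at 7.89, 5.30 and 4.12 CPM in WT on diet, 13.2, 15.1 and 13.4 in WT with rosiglitazone, 4.53 and 3.55 in KO on diet and 6.11, 6.85 and 3.48 in KO with rosiglitazone. It fell in KO with rosiglitazone (-1.34 ± 0.30, adjusted p = 0.0161, edgeR).

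Acaa1a and Acaa1b are neighbouring thiolase genes on chromosome 9, 182583 bases apart. Their main transcripts are identical in 1521 of 1637 aligned bases (92.9%), so reads shared between them were divided by the authors' model and each value is uncertain. Acaa1a was at 123, 72.4 and 74.1 CPM in WT on diet, 179.7, 212 and 167 in WT with rosiglitazone, 70.5 and 63.7 in KO on diet and 116, 83.3 and 82.9 in KO with rosiglitazone. It fell in KO with rosiglitazone (-0.99 ± 0.24, adjusted p = 0.0234, edgeR) and averaged over treatments (-0.70 ± 0.18, adjusted p = 0.0317, edgeR). Acaa1b was at 69.7, 17.3 and 9.75 CPM in WT on diet, 172, 303 and 167 in WT with rosiglitazone, 12.8 and 3.55 in KO on diet and 43.7, 69.2 and 33.3 in KO with rosiglitazone. Rosiglitazone libraries were above those on diet within each genotype, with no overlap in either genotype. The estimates were 2.73 ± 0.75, adjusted p = 0.102 in WT and 2.58 ± 0.88, adjusted p = 0.465 in KO by edgeR, neither of which passed. DESeq2 called Acaa1b higher in WT (2.73, adjusted p = 0.00173) and in KO (2.57, adjusted p = 0.0469), in KO as the 1 gene of the set called by that tool, against 0.894% of all tested genes. In KO averaged over treatments Acaa1b was lower (-2.06 ± 0.57, adjusted p = 0.0433, edgeR). The acyl-CoA oxidases Acox2 and Acox3, which act on bile acid precursors and branched chains, were called by edgeR in no comparison. Limma-voom called Acox3 higher for rosiglitazone in WT (0.37, adjusted p = 0.0241). Acox3 was at 99.6, 101 and 83.02 CPM in WT and 77.1, 75.9 and 80.2 in KO with rosiglitazone, and Acox2 did not exceed 1.12 CPM in any library.

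Among the auxiliary enzymes, Ech1, which moves double bonds of unsaturated chains, was at 239, 129 and 92.7 CPM in WT on diet, 524, 627 and 509.8 in WT with rosiglitazone, 134 and 53.6 in KO on diet and 106, 151 and 129 in KO with rosiglitazone. All 3 WT libraries with rosiglitazone were above every other library. Ech1 rose with rosiglitazone in WT (1.85 ± 0.40, adjusted p = 0.0485, edgeR) and fell in KO with rosiglitazone (-2.11 ± 0.41, adjusted p = 0.00967, edgeR). Nudt7, a hydrolase of CoA and its esters, was at 45.6, 28.5 and 20.1 CPM in WT on diet, 68.5, 77.5 and 60.8 in WT with rosiglitazone, 21.5 and 13.1 in KO on diet and 15.1, 18.3 and 15.99 in KO with rosiglitazone. Nudt19, a related hydrolase, was at 22.9, 13.5 and 13.5 CPM in WT on diet, 27.1, 29.7 and 27.3 in WT with rosiglitazone, 15.6 and 10.3 in KO on diet and 14.2, 13.7 and 10.5 in KO with rosiglitazone. Both fell in KO with rosiglitazone (Nudt7 -2.06 ± 0.30, adjusted p = 0.00303, and Nudt19 -1.13 ± 0.25, adjusted p = 0.0156, edgeR) with no overlap. Crat, the carnitine acetyltransferase of peroxisomes and mitochondria, was at 235, 139.5 and 92.4 CPM in WT on diet, 358, 478 and 353 in WT with rosiglitazone, 242 and 78.4 in KO on diet and 92.2, 184 and 125 in KO with rosiglitazone. KO on diet replicate 1 was slightly above WT on diet replicate 1, and Crat fell in KO with rosiglitazone (-1.57 ± 0.46, adjusted p = 0.0471, edgeR). Crat lost this call in 7 of 11 fits without 1 library. Pecr, an enoyl-CoA reductase of chain elongation, was at 7.29, 3.63 and 3.70 CPM in WT on diet, 5.47, 7.84 and 7.23 in WT with rosiglitazone, 3.35 and 1.56 in KO on diet and 3.80, 2.48 and 1.43 in KO with rosiglitazone. It was lower in KO averaged over treatments (-1.20 ± 0.32, adjusted p = 0.0383, edgeR) and just missed the threshold with rosiglitazone (adjusted p = 0.0528, edgeR). Decr2, a dienoyl-CoA reductase, was at 49.995, 64.5 and 51.6 CPM in WT and 34.3, 39.5 and 33.04 in KO with rosiglitazone (adjusted p = 0.0528, edgeR). The thioesterase Acot8 was between 7.59 and 12.7 CPM in all libraries and was not called by edgeR.

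Alpha-oxidation removes 1 carbon from phytanic acid, a branched fatty acid that beta-oxidation cannot start on. Phyh, its hydroxylase, was at 65.5, 38.4 and 36.1 CPM in WT on diet, 104, 120.2 and 105 in WT with rosiglitazone, 28.02 and 13.7 in KO on diet and 14.8, 24.8 and 18.5 in KO with rosiglitazone. Hacl1, its lyase, was at 49.5, 27.7 and 24.7 CPM in WT on diet, 84.4, 97.6 and 81.9 in WT with rosiglitazone, 19.3 and 15.7 in KO on diet and 18.8, 21.4 and 19.6 in KO with rosiglitazone. Both KO groups lay below every WT library in both genes. With rosiglitazone the KO difference was -2.50 ± 0.33, adjusted p = 0.00197 for Phyh and -2.14 ± 0.25, adjusted p = 0.00131 for Hacl1 by edgeR, the latter the smallest adjusted p of the 36 genes. On diet the differences had the same sign and did not pass (-1.16 ± 0.36, adjusted p = 0.283, and -0.96 ± 0.28, adjusted p = 0.242, edgeR). Hacl1 rose with rosiglitazone in WT (1.37 ± 0.25, adjusted p = 0.0287, edgeR), while Phyh did not pass (1.23 ± 0.32, adjusted p = 0.0782, edgeR). Exons of Hacl1 overlap Btd on the other strand and Gm49387 on the same strand. Among other called genes, Gnpat overlaps a gene on each strand. Pex14, Acaa1a, Acaa1b, Pecr, Crat and Nudt19 overlap genes on the other strand. Reads of such genes cannot be told apart there.

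The ether lipid genes, whose products begin the synthesis of plasmalogens, did not move as one. Gnpat, the acyltransferase of the first step, was at 416, 193 and 135 CPM in WT on diet, 552, 703 and 526 in WT with rosiglitazone, 167 and 85.1 in KO on diet and 101, 156 and 121 in KO with rosiglitazone. It was lower in KO with rosiglitazone with no overlap (-2.24 ± 0.43, adjusted p = 0.00914, edgeR). Agps, which acts next, was at 98.8, 80.3 and 81.1 CPM in WT on diet, 85.1, 104 and 91.4 in WT with rosiglitazone, 116 and 73.8 in KO on diet and 98.7, 90.3 and 86.2 in KO with rosiglitazone. The 4 groups overlapped, and the KO difference with rosiglitazone was -0.03 ± 0.19. Far1, the reductase that supplies the fatty alcohol, was at 85.8, 112 and 113 CPM in WT on diet, 54.05, 49.4 and 69.1 in WT with rosiglitazone, 112 and 102 in KO on diet and 98.8, 88.7 and 92.9 in KO with rosiglitazone. The 3 WT libraries with rosiglitazone were the lowest of the 11. Far1 fell with rosiglitazone in WT (-0.85 ± 0.17, adjusted p = 0.0409, edgeR) and was higher in KO than in WT with rosiglitazone (0.70 ± 0.17, adjusted p = 0.0252, edgeR). On both TPM scales neither difference passed. The KO difference also failed to pass without replicate 1 or 3 of KO with rosiglitazone, without replicate 1 or 2 of WT with rosiglitazone, with the adipocyte, muscle or B cell covariate, and without the 3 libraries with muscle reads, with estimates of 0.40 to 0.95. The WT difference failed to pass in 8 of the 11 fits that left out 1 library. As 1 gene of 36, its count is below the 5.47% of all genes. Its reads include retained-intron transcripts: the largest of these, Far1-204, was at 5.54 to 13.3 TPM in WT on diet and 2.98 to 5.30 in WT with rosiglitazone. The coding transcript Far1-201 was at 5.59 to 8.69 and 1.61 to 5.18 TPM in the same groups, the coding transcript Far1-211 at 7.25 to 9.35 and 3.69 to 6.06, and the antisense gene Far1os overlaps it at no more than 4.79 CPM.

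Catalase (Cat), which degrades hydrogen peroxide, was at 644, 267 and 238 CPM in WT on diet, 1021, 1204 and 1073 in WT with rosiglitazone, 251 and 90.2 in KO on diet and 129, 176 and 170.4 in KO with rosiglitazone. WT with rosiglitazone was highest, WT on diet replicate 1 was next, and KO with rosiglitazone lay below every WT library. Cat fell in KO with rosiglitazone (-2.79 ± 0.47, adjusted p = 0.00568, edgeR) and averaged over treatments (-1.98 ± 0.35, adjusted p = 0.0075, edgeR). The 2.87-fold estimate for rosiglitazone in WT did not pass (1.52 ± 0.45, adjusted p = 0.12, edgeR).

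**Figure D4:**
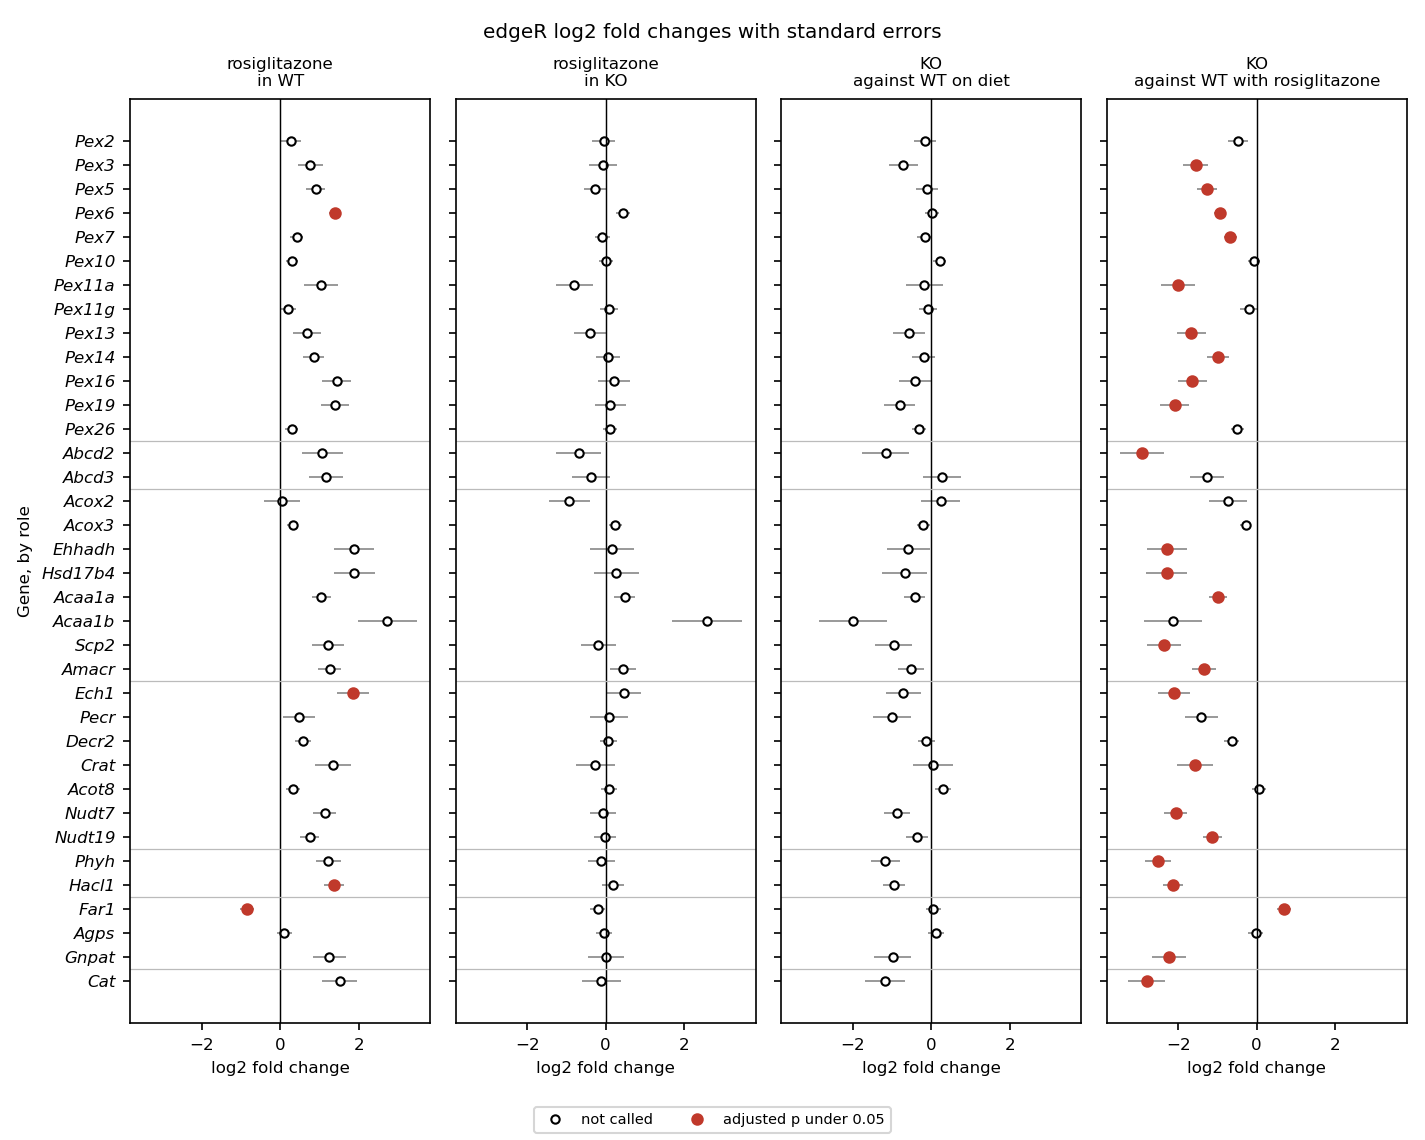
Log2 fold changes (horizontal) with standard errors for the 36 genes (vertical, by role; grey lines separate roles) in 4 comparisons by edgeR; filled points have an adjusted p under 0.05. Most points lie right of 0 for rosiglitazone in WT and left of 0 for KO against WT with rosiglitazone, with Far1 opposite in both, and no point is filled in the other two panels.

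Rosiglitazone in KO, the response where Raptor is deleted, gave no called gene in the set, where edgeR called 0.0148% of all tested genes. The median log2 fold change was 0.01, with 19 estimates above and 17 below 0. That median was 0.46 without KO on diet replicate 1 and -0.31 without KO on diet replicate 2. At an unadjusted p under 0.05, 2 genes were higher (Pex6 and Acaa1b) and 0 lower, against 4.09% and 4.27%. DESeq2 called Acaa1b alone and limma-voom none, and limma-voom called 0 of all genes. The groups did not overlap in 4 genes that were higher (Pex6, Acox3, Acaa1a and Acaa1b, against 10.5% of all genes) and in Far1, which was lower (against 10.7%). KO on diet has 2 libraries, replicate 1 at 2806 and replicate 2 at 1339 CPM summed over the 36 genes, and the 3 KO libraries with rosiglitazone lay between them at 1885 to 2204.

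The difference between the drug responses (KO minus WT) addresses the interaction in the series title. No gene of the set passed, where edgeR called 0.104% of all tested genes. At an unadjusted p under 0.05, 15 genes were lower and 1 (Far1) higher, against 5.64% and 4.9%. The estimate was below 0 in 35 of 36 genes, with a median of -0.96 against 0.00 over all genes. That median was -0.48 without KO on diet replicate 1 and -1.16 without KO on diet replicate 2. Pex6 had the smallest adjusted p (-0.96 ± 0.23, adjusted p = 0.182, edgeR) and was the 1 gene that DESeq2 called lower, against 0.738% of all genes. Limma-voom called 0 of the set, against 0.115% higher and 0.111% lower. Pex11a was at -1.83 ± 0.64 and Abcd2 at -1.76 ± 0.77, and Acaa1b at -0.15 ± 1.07. Without WT on diet replicate 1, Hacl1 passed (log2 fold change -1.56). With the adipocyte sum as a covariate 9 genes were lower, Cat (-0.92), Abcd2 (-0.88) and Pex11a (-1.17) among them. That fit called 640 of all genes, in place of 28. With the B cell sum as a covariate 0 of the set and 111 of all genes were called, and the median of the set was -0.15. These contrasts share their WT and KO libraries, so their values are not independent of those above.

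On diet alone, no gene of the set was called between KO and WT, where edgeR called 0.137% of all tested genes. DESeq2 also called 0, against 0.816% higher and 1.91% lower, and limma-voom 0, against 0.00742% and 0.0148%. At an unadjusted p under 0.05, 5 genes were lower (Acaa1b, Nudt7, Phyh, Hacl1 and Cat) and 0 higher, against 5.92% and 4.57%. The median log2 fold change was -0.39 against 0.02 over all genes. That median was -0.87 without KO on diet replicate 1 and -0.08 without KO on diet replicate 2. The 2 KO libraries lay below every WT library in 5 genes (Pex26, Acaa1a, Pecr, Phyh and Hacl1, against 10.3% of all genes) and above in 2 (Pex10 and Acot8, against 10.5%). With the adipocyte sum as a covariate 13 genes were higher and 0 lower in KO on diet, with a median of 0.55. That fit called 3500 of all genes, in place of 37. With the B cell sum the set went the other way, with 7 lower (Pex19, Hacl1, Phyh, Cat, Scp2, Nudt7 and Abcd2), 0 higher and a median of -0.44. In that fit 853 of all genes were called. On diet the adipocyte sums of the genotypes did not overlap either. With titles for the WT treatments 18 genes were lower and 1 higher, and 2886 of all genes were called. Averaged over treatments, 21 genes were lower in KO, against 8.2% of all tested genes, and 0 higher, against 4.57%, with a median of -0.85. In the same contrast 19 of 22 mature adipocyte markers were lower and 15 of 16 macrophage markers higher. With the adipocyte sum as a covariate 0 genes were lower and 5 higher, with a median of 0.29. That fit called 3146 of all genes, in place of 3442. Without the 3 libraries with muscle reads 512 of all genes were called, and 2 of the set were lower (Hacl1 and Phyh). The count for the set was 11 without replicate 2 or replicate 3 of KO with rosiglitazone. It was 10, 10 and 12 without replicates 1, 2 and 3 of WT with rosiglitazone. Without KO on diet replicate 1 the median of the set was -1.17, and without replicate 2 it was -0.75. Leaving out 1 library gave 1847 to 5068 calls over all genes, in place of 3442. Of these 21 genes, 19 were also lower with rosiglitazone, a comparison that shares its libraries; Pecr and Acaa1b were the other two. Abcd3, Acot8, Acox2, Acox3, Agps, Decr2, Pex2, Pex10, Pex11g and Pex26 were called by edgeR in none of the 7 contrasts. Of these, DESeq2 called Abcd3, Decr2 and Pex26, and limma-voom Abcd3, Acox3, Decr2, Pex2 and Pex26, in at least 1 contrast.

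The 2 comparison lists were described the same way. Of 47 other peroxisomal genes 41 were tested, and rosiglitazone in WT raised 3: Ephx2, an epoxide hydrolase (3.28 ± 0.46, adjusted p = 0.0154, edgeR), Dhrs7b, a reductase of ether lipid synthesis (1.58 ± 0.30, adjusted p = 0.0331, edgeR), and Mlycd, malonyl-CoA decarboxylase (1.49 ± 0.29, adjusted p = 0.0368, edgeR). There edgeR called 1.55% of all tested genes higher. The median of the tested genes of this list was 0.53, against -0.05 over all tested genes. In KO with rosiglitazone 23 were lower and 1 higher, against 9.5% and 5.47% of all tested genes. The median was -1.04, against 0.05 over all tested genes. Paox (-1.03), Ephx2 (-2.84) and Gstk1 (-2.58) were among the lower genes. Pxmp2, a pore protein of the membrane, was lower in KO on diet (-3.15 ± 0.40, adjusted p = 0.0241, edgeR). It was the 1 gene of either list called there, against 0.137% of all tested genes in either direction. Of 20 genes of mitochondrial fatty acid oxidation, rosiglitazone in WT raised 14, against 1.55% of all tested genes, with a median of 1.93. The smallest p-values were those of Acadvl (2.58), Acad10 (0.91), Etfb (2.24) and Eci1 (1.89). In KO with rosiglitazone 17 of these 20 were lower, against 9.5% of all tested genes, with a median of -1.78. Whether the peroxisomal and mitochondrial lists differ in response was not tested.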

How the data were processed

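RNA was extracted with Trizol and made into Nextera XT libraries, per the labels' protocols, with strandedness not stated. Transcript quantification by the authors used Salmon (submitters' processing notes), and those notes list edgeR, mm10 and GRCm38 too, with no versions. The deposited tables give, per the file headers, estimated counts and TPM values for each transcript; estimated counts divide ambiguous reads among transcripts, and TPM values are relative to each library's total.

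Transcripts were matched to GENCODE M21 (GRCm38); 396 of 132288 did not match and held 0.0985% to 0.144% of reads. Counts were added up over the transcripts of a gene, then rounded. Replicates differed beyond sampling noise (chi-square per degree of freedom 29.7 to 156 over 10 pairs), and each library counted as 1 sample. That spread does not show that the libraries are separate animals. One edgeR 4.0.16 quasi-likelihood model (R 4.3.3, robust, TMM, filterByExpr by group) with a mean per group gave 7 contrasts, with Benjamini-Hochberg adjustment over 26960 genes and a threshold of 0.05; errors are standard errors. CPM uses TMM-scaled library sizes. The test was checked on simulated data.

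The genes and lists were chosen with earlier results of these data known. All 36 genes are accounted for; values in every library are given for genes called in any contrast, for the smallest p for rosiglitazone in WT in each role, and for 6 fixed genes (Pex11a, Acaa1a, Acaa1b, Scp2, Ehhadh and Cat), and up to 4 genes of each comparison list are named, except where a gene is not reported here. A few other genes are named with values chosen after these were seen.

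Groups follow the treatment characteristic. Alternatives were RLE and upper-quartile scaling, DESeq2 1.42.0, limma-voom with quality weights (limma 3.58.1), no filter, 1 CPM in 3 libraries, limma-trend on log2(TPM + 1) and log2(TPM + 0.1), only the 2 groups compared, a replicate block, WT treatments from the titles, summed markers of adipocytes, muscle or B cells as covariates, omission of libraries with over 0.5% muscle reads, and each library left out. Same-numbered libraries were not treated as pairs in the main fit. Over 15 such pairs, correlations of deviations from group means ran from -0.527 to 0.701, with 6 over 0.1. These values do not settle whether the numbers mark shared samples.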

Additional observations from a re-analysis of the deposited data

How the results depend on the processing

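The counts below are members called of 36, unless all genes are named. For rosiglitazone in WT the count was 4, and it was 3 with RLE scaling, 10 with upper-quartile scaling, 18 with DESeq2, 31 with limma-voom, 0 with either TPM scale, 1 with only the 2 groups compared, 14 with the adipocyte covariate, 1 with the muscle or the B cell covariate and 0 without the libraries with muscle reads. Over all genes 578 were called, 512 with RLE and 826 with upper-quartile scaling, 1981 with DESeq2 and 7325 with limma-voom. All genes called were 48 and 18 on the TPM scales with 1 and 0.1 added, and 313 with only the 2 groups. With the adipocyte, muscle and B cell covariates they were 1798, 159 and 786, and without the libraries with muscle reads 0. For rosiglitazone in KO the count of 0 became 1 with DESeq2, 3 with the adipocyte and 1 with the B cell covariate. The 4 calls over all genes became 364, 852 and 145 in that order. For KO against WT on diet the 0 became 13, all higher, with the adipocyte covariate and 7, all lower, with the B cell covariate. The 37 calls over all genes became 3500 and 853. For KO against WT with rosiglitazone the 24 became 1 with the adipocyte covariate (in the other direction), 8 with the B cell covariate and 1 without the libraries with muscle reads. The 4037 calls over all genes became 1974, 1469 and 208. For the interaction the 0 became 1 with DESeq2 and 9 with the adipocyte covariate. The 28 calls over all genes became 531 and 640. For rosiglitazone averaged over genotypes the 1 became 7 with DESeq2, 9 with limma-voom, 0 with log2(TPM + 0.1), 9 with the adipocyte covariate, 0 with the muscle and 6 with the B cell covariate, and 0 without the libraries with muscle reads. The 154 calls over all genes became 1344, 493, 173, 2226, 24, 1497 and 0 in that order. For KO averaged over treatments the 21 became 5 with the adipocyte covariate (in the other direction), 8 with the muscle covariate and 2 without the libraries with muscle reads. The 3442 calls over all genes became 3146, 1488 and 512. WT treatments taken from the titles gave 4 (in the other direction), 0, 19, 0, 1, 0 and 21 over the 7 contrasts in the order above. All genes called were then 578, 4, 2886, 624, 154, 28 and 3442. Leaving out 1 library gave 1 to 24, 0 to 0, 0 to 0, 10 to 29, 0 to 1, 0 to 11 and 9 to 26 in the same order; where 1 KO library on diet was left, it was assumed to vary like the other groups. All genes called in the fits without 1 library were 18 to 2779 for rosiglitazone in WT and 1498 to 5919 for KO against WT with rosiglitazone. They were 10 to 1199 for rosiglitazone averaged and 1847 to 5068 for KO averaged. The replicate block gave 5, 0, 0, 24, 0, 1 and 21. Over all genes, it took the calls from 4 to 1 for rosiglitazone in KO and 37 to 1 for KO on diet. For the interaction they went from 28 to 1, and for rosiglitazone averaged from 154 to 35. Whether the replicate numbers mark shared samples is not known. The interaction and averaged contrasts need all 4 groups, so no fit with only 2 groups exists. Genes were followed singly in each contrast if called, or as the 4 with the smallest p where fewer than 4 were called. Directions turned for followed genes as below, in log2 fold change, and other genes that turned are not listed. With the titles the median of the set for rosiglitazone in WT went from 1.04 to -1.04. With the adipocyte covariate the median for KO against WT on diet went from -0.39 to 0.55. With the titles: Pex6 -1.40, Hacl1 -1.37, Far1 0.85 and Ech1 -1.85 for rosiglitazone in WT; Pex6 0.47, Acaa1a 0.064 and Far1 -0.15 for KO against WT with rosiglitazone; Pex6 1.84, Hacl1 1.56, Pex5 0.64 and Pex11a 0.24 for the interaction; Pex6 -0.48, Acaa1b -0.074, Acaa1a -0.28 and Hacl1 -0.59 for rosiglitazone averaged. With the adipocyte covariate: Nudt7 0.28 and Acaa1b 1.09 for KO against WT on diet. Under rosiglitazone it gave Abcd2 0.054, Ech1 0.079, Pex3 0.067, Nudt19 0.036, Pex11a 0.39, Pex13 0.40, Pex16 0.21, Ehhadh 0.47, Hsd17b4 0.64, Pex14 0.40 and Crat 0.85. For KO averaged it gave Cat 0.13, Pex19 0.24, Scp2 0.29, Gnpat 0.31, Abcd2 0.49, Ech1 0.46, Pex3 0.28, Nudt19 0.27, Pex13 0.63, Acaa1a 0.0043, Hsd17b4 1.05, Ehhadh 0.85, Pex16 0.61, Pecr 0.27, Pex5 0.40 and Acaa1b 1.46. On the TPM scales the response in KO was Pex6 -0.50 and Acaa1a -0.32 with 1 added and Pex6 -0.53 and Acaa1a -0.32 with 0.1 added, where the median of all genes was itself -0.60 and -0.83. Upper-quartile scaling put that median at -0.11 for rosiglitazone in WT and at 0.13 for KO with rosiglitazone. The causes were not tested. Depth was 13035346 to 17167452 reads in KO with rosiglitazone, the shallowest group.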
